A study of Mus musculus with 18 samples.

Results

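The day 2 to 6 step of embryoid body differentiation was compared between 2 lines of mouse embryonic stem cells that differ in EED by design. The quantity described is the line difference, which is the log2 change from day 2 to day 6 in K19R cells minus the same change in FLAG-WT cells. A value above 0 means that a gene rose more, or fell less, in K19R, and a value below 0 the reverse. The comparison rests on 8 of the 18 libraries of the series, 2 for each line and day, and covered the 19092 genes that were expressed well enough to test, of 54429 gene names in the table.

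EED belongs to Polycomb repressive complex 2 (PRC2). The title of the series names its acetylation through CBP/P300, a pair of related acetyltransferases, as the subject of the study. Both lines are knock-in mouse embryonic stem cells with FLAG-tagged EED. FLAG-WT cells carry FLAG-EED wildtype, and K19R cells carry FLAG-EED with lysine 19 replaced by arginine, which keeps the charge but cannot be acetylated. Before differentiation both lines grew with leukemia inhibitory factor (LIF) and 2i, a pair of inhibitors of MEK1/2 and GSK3. The embryoid bodies of all 4 groups were kept in suspension on a rotary shaker in medium that lacked both, and were collected at day 2 or day 6. The labels do not say how many clones stand behind each line, so the substitution and other differences between the lines cannot be told apart.

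PRC2 places methyl groups on lysine 27 of histone H3, a mark found at silent developmental genes. Embryonic stem cells without EED are known to self-renew but to differentiate poorly. In embryoid bodies the outer cells become primitive endoderm and then visceral endoderm, which secretes serum proteins and lays down basement membrane, while the inner cells leave naive pluripotency, pass through a formative state like the early epiblast and then enter the germ layers.

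The 8 libraries held 20452195 to 28917558 counts. Levels are CPM, which are read counts scaled to the library total and adjusted by the trimmed mean of M-values, and the 2 numbers given for a group are its replicate libraries. Adjusted p-values are from edgeR's quasi-likelihood test with Benjamini-Hochberg adjustment over all tested genes, and a gene is called when its adjusted p is under 0.05. Errors are standard errors worked back from that test, as the absolute log2 value divided by the square root of its F statistic. Summed markers of embryonic stem cells were 1912 and 1889 CPM in FLAG-WT and 1433 and 1534 CPM in K19R at day 2. At day 6 they were 168 and 132 CPM in FLAG-WT and 587 and 530 CPM in K19R. Summed endoderm markers rose from 436 and 432 CPM at day 2 to 9988 and 10257.8 CPM at day 6 in FLAG-WT. In K19R they rose from a lower start, 58.9 and 61.7 CPM at day 2, to 3883 and 3490.3 CPM at day 6. Mesoderm markers stayed between 4.96 and 36.6 CPM and neural markers between 37.8 and 89.8 CPM in all 8. In bulk RNA, fewer cells of a type and less RNA per cell cannot be told apart. At day 0 the gap between the lines was called for 10.5% of genes, 5.51% higher in K19R and 4.98% lower, and it included sex-chromosome transcripts. Ddx3y, a Y-linked RNA helicase gene, had 9.33 and 9.13 CPM in FLAG-WT and 58.5 and 56.8 CPM in K19R at that day.

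The line difference was called for 8503 genes, or 44.5% of those tested. Of these, 4428 were above 0 and 4075 below 0, and 3848 differed by 2-fold or more, 2634 of them above 0. The median over all tested genes was 0.08. The FLAG-WT step itself was called for 13855 genes (72.6%) and the K19R step for 12762 (66.8%). Across genes, the steps of the lines had a Pearson correlation of 0.74, which describes 19092 genes that are not independent replicates. Among the 8503 genes, 4416 (51.9%) moved in the same direction in both lines but by different amounts, 3108 (36.6%) were called in 1 line only, and 919 (10.8%) moved in opposite directions. In the last group 533 genes fell in FLAG-WT and rose in K19R, and 386 did the reverse. The balance of directions depended on scaling. With library totals alone as the scale, the median of all genes was 0.45 and 80.8% of the 9647 calls were above 0, against 52.1% here. The FLAG-WT day 6 libraries differ in composition from the other 6. Their scaling factors were 0.827 and 0.838 against 1.05 to 1.10, and their 20 most abundant genes took 12.7% and 12.8% of the counts against 7.42% to 10.2%. They also had the highest mitochondrial share, 2.24% and 2.50% against 1.31% to 1.89%, and the fewest genes with a count, 21614 and 22583 against 23989 to 25662. The part of these features in the line differences was not tested.

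**Figure D1:**
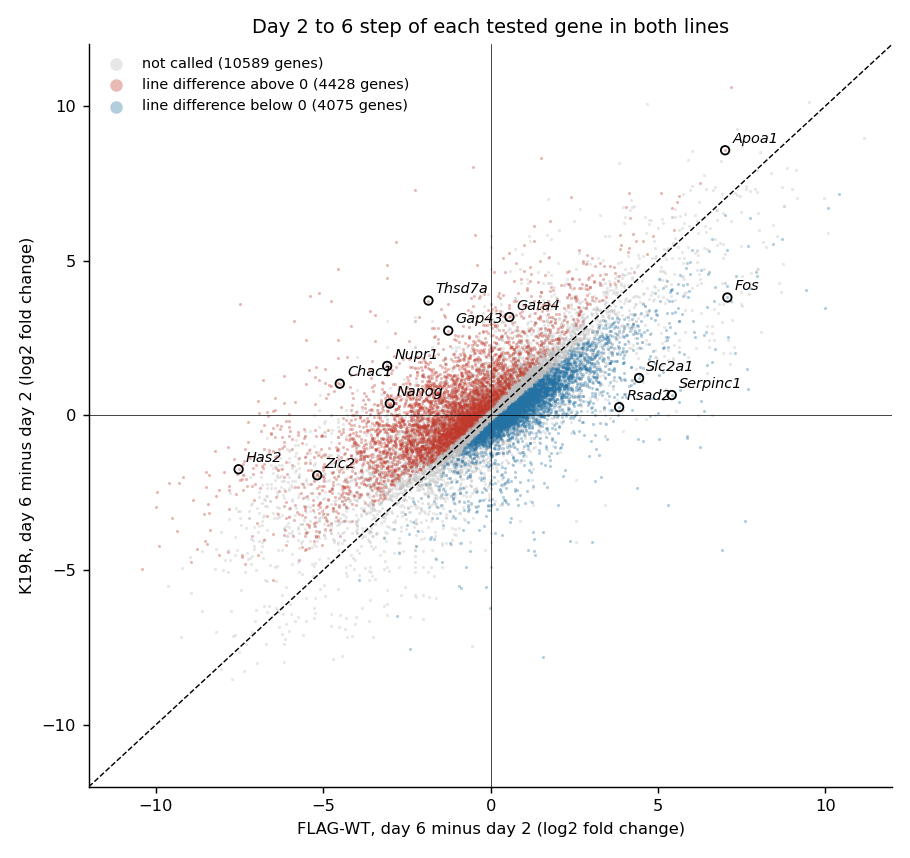
Each point is 1 of 19092 genes, with its log2 change from day 2 to day 6 in FLAG-WT on the x axis and in K19R on the y axis. The dashed line marks equal steps. The 4428 genes called above 0 lie above that line and the 4075 called below 0 lie under it, and circles mark genes described in the text, such as Chac1 and Nanog, above the line on the left, and Slc2a1 and Fos, under the line on the right.

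The gap between the lines at each day places these differences in time. Of the 8503 genes, 3770 (44.3%) had no called gap at day 2 and a called one at day 6. Another 1461 (17.2%) had gaps of opposite sign at the 2 days, 1330 (15.6%) had a gap at day 2 that was no longer called at day 6, 1301 (15.3%) had a gap that widened and 460 (5.41%) one that narrowed. These classes use the same 8 libraries as the line difference and describe it. The day 10 libraries did not enter the line difference itself, though they shared in the fit that set its scaling and estimate of spread. At day 10, where 58.4% of all tested genes were called between the lines, 33.2% higher in K19R and 25.2% lower, 1313 of the 1978 genes whose gap opened upward by day 6 were again called higher (66.4%) and 97 lower. Of the 1792 genes whose gap opened downward, 1085 were again called lower (60.5%) and 178 higher. Of the 626 genes whose gap had widened upward, 516 were again called higher (82.4%), and of the 675 whose gap had widened downward, 508 were again called lower (75.3%). The share was 70.7% for genes whose gap had turned upward and 59.3% for those whose gap had turned downward, and differences between these shares were not tested.

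To describe pathways and cell types, 791 genes in 43 lists were looked up, of which 785 were in the table and 739 could be tested. A gene printed without a p-value was called unless stated otherwise. Counts of list members above and below 0 stand against 23.2% and 21.3% of all tested genes called in those directions. In 6 of the lists described, no member was called on one side of 0. The same count of 0 was found at an unadjusted p under 0.05 and with DESeq2, except in the Hox list, where 1 gene was above 0 at the unadjusted p.

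The targeted gene comes first. Eed (chr7:89954654-89980983 on GRCm38) had 111 and 108 CPM at day 2 and 46.3 and 39.1 CPM at day 6 in FLAG-WT, against 77.7 and 82.1 CPM and then 44.3 and 44.6 CPM in K19R. FLAG-WT was above K19R at day 2 in both libraries, and the lines overlapped at day 6. Its line difference was 0.51 ± 0.11 (adjusted p = 5.7e-04). The counts cannot tell the wildtype from the K19R codon, so they do not check the labels. Of the 13 tested PRC2 genes, 5 were above 0 and 5 below 0, where 23.2% and 21.3% of all tested genes were called in those directions. Their median was -0.04, and 0.34 with library totals alone, a change of sign. Ezh2, the catalytic subunit, had 128 and 137 CPM at day 2 and 134 and 135 CPM at day 6 in FLAG-WT, against 134 and 148 CPM and then 89.5 and 92.1 CPM in K19R, a line difference of -0.66 ± 0.09 (adjusted p = 2.8e-06). Its step was not called in FLAG-WT, and in K19R both day 6 libraries were below both day 2 libraries. Suz12, the third core subunit, had a line difference of -0.30 ± 0.11 (adjusted p = 0.027), which was 0.079 with library totals alone. Accessory subunits lay on both sides of 0. Phf19, a Polycomb-like subunit that helps PRC2 reach its targets, had 14.3 and 15.7 CPM at day 2 and 1.76 and 1.93 CPM at day 6 in FLAG-WT, against 9.82 and 9.98 CPM and then 7.58 and 7.11 CPM in K19R, a line difference of 2.60 ± 0.27 (adjusted p = 1.4e-08). Epop, which links PRC2 to elongin, had -0.97 ± 0.10, with 347 and 322 CPM in FLAG-WT and 117 and 111 CPM in K19R at day 6.

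Among the 20 tested genes of histone acetylation, 7 were above 0 and 3 below 0, with a median of 0.06, or 12 and 2 with a median of 0.44 with library totals alone. The genes of the 2 acetyltransferases in the study's title are named here for that reason. Crebbp, which encodes CBP, had 48.7 and 51.9 CPM at day 2 and 21.5 and 23.3 CPM at day 6 in FLAG-WT, against 59.5 and 44.4 CPM and then 23.3 and 23.9 CPM in K19R, and its line difference of 0.04 ± 0.15 (adjusted p = 0.88) was not called. Ep300, which encodes P300, had a line difference of 0.52 ± 0.13 (adjusted p = 0.0026), with 112 and 97.97 CPM in FLAG-WT and 146 and 153 CPM in K19R at day 6. The largest called differences with at least 10 CPM in a group were those of 2 class II deacetylase genes. Hdac6 rose by 2.40 on the log2 scale in FLAG-WT and by 1.13 in K19R, a line difference of -1.26 ± 0.10 (adjusted p = 1.0e-10), and Hdac5 had -1.11 ± 0.11. The acetyltransferase gene Kat6b went the other way, at 1.06 ± 0.13. In the PRC1 list, the complex that binds the PRC2 mark, 5 of 20 tested genes were above 0 and 10 below 0, with a median of -0.29. With library totals alone 8 were above 0 and none below 0, with a median of 0.09. Phc1, a Polyhomeotic subunit gene, had 1.40 ± 0.13.

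Naive pluripotency genes mostly lay above 0. From day 2 to day 6, 14 of the 18 tested members fell in FLAG-WT, where 37% of all genes did, and 12 fell in K19R, where 32.1% did. Of the 18, 15 had a line difference above 0 and 1 below 0, with a median line difference of 1.41 beside 0.08 for all genes. At day 2, 11 were called lower in K19R and 3 higher, where 21.8% and 20% of all genes were. At day 6, 5 were called lower and 11 higher, where 30.1% and 28.4% of all genes were. The median gap went from -0.54 to 1.25. Among called members the gap changed sign in 6, narrowed in 4, opened in 3 and widened in 3. The median step was -3.37 in FLAG-WT and -0.94 in K19R. Nanog (chr6:122707489-122714633), a homeobox factor of the pluripotency network, stood in the core list and not among these 18. It had 94.3 and 93.8 CPM at day 2 and 13.7 and 9.28 CPM at day 6 in FLAG-WT, against 72.04 and 70.6 CPM and then 98.2 and 87.9 CPM in K19R. Both K19R libraries lay above both FLAG-WT libraries at day 6 and below them at day 2. Nanog fell by 3.01 on the log2 scale in FLAG-WT and rose by 0.38 in K19R, a line difference of 3.39 ± 0.16 (adjusted p = 1.7e-14). Esrrb, an orphan nuclear receptor gene of the naive state, had 255 and 249 CPM at day 2 and 17.9 and 12.6 CPM at day 6 in FLAG-WT, against 144 and 144 CPM and then 82.2 and 68.9 CPM in K19R, and a line difference of 3.09 ± 0.17 (adjusted p = 1.5e-13). It fell in both lines, and the K19R level at day 6 stayed above FLAG-WT in both libraries. Tcl1, a co-activator of AKT, had 3.41 ± 0.22 (adjusted p = 3.4e-12) and Nr5a2, another orphan nuclear receptor gene, 3.02 ± 0.27 (adjusted p = 1.3e-09).

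Sox2 and Pou5f1, the core factors of pluripotency, had no called gap at day 2 and a called one at day 6. Sox2 had 336 and 339 CPM at day 2 and 25.9 and 19.9 CPM at day 6 in FLAG-WT, against 336 and 369.8 CPM and then 112 and 96.4 CPM in K19R, a line difference of 2.11 ± 0.13 (adjusted p = 2.4e-12). Pou5f1 had 596 and 585 CPM at day 2 and 56.5 and 41.9 CPM at day 6 in FLAG-WT, against 592 and 644 CPM and then 192 and 197 CPM in K19R, a line difference of 1.91 ± 0.14 (adjusted p = 4.6e-11). In both genes the K19R libraries at day 6 lay above those of FLAG-WT and below every day 2 library. In the core list as a whole, which includes Nanog, 6 of 10 tested genes were above 0 and 2 below 0. The exceptions were Lin28a and Trim71, whose values were seen before they were named. Both encode regulators of RNA and rose more in FLAG-WT, with line differences of -0.84 ± 0.11 and -0.56 ± 0.09. The day 10 median gap over the core list was 1.76 and over the naive list 2.58, in libraries outside the contrast.

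Of 18 tested genes of the formative and primed epiblast, 15 fell in FLAG-WT and 14 in K19R. By line difference 11 were above 0 and 4 below 0, with a median of 1.07. Here the gap widened from a median of 0.58 at day 2 to 1.53 at day 6. Otx2, a homeobox factor gene of the epiblast, had 256 and 269 CPM at day 2 and 13.9 and 10.9 CPM at day 6 in FLAG-WT, against 321 and 347 CPM and then 73.9 and 78.4 CPM in K19R, a line difference of 2.26 ± 0.14 (adjusted p = 1.1e-12). Zic2, a zinc-finger factor gene, had 73.9 and 73.6 CPM at day 2 and 1.89 and 2.22 CPM at day 6 in FLAG-WT, against 124 and 119 CPM and then 28.9 and 34.6 CPM in K19R, a line difference of 3.24 ± 0.19 (adjusted p = 4.1e-13). For both genes K19R was above FLAG-WT at each day, with a wider gap at day 6. Pim2, a serine/threonine kinase gene, had 1.75 ± 0.13 and Lef1, which encodes a factor that carries WNT signals to DNA, 1.83 ± 0.33.

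**Figure D2:**
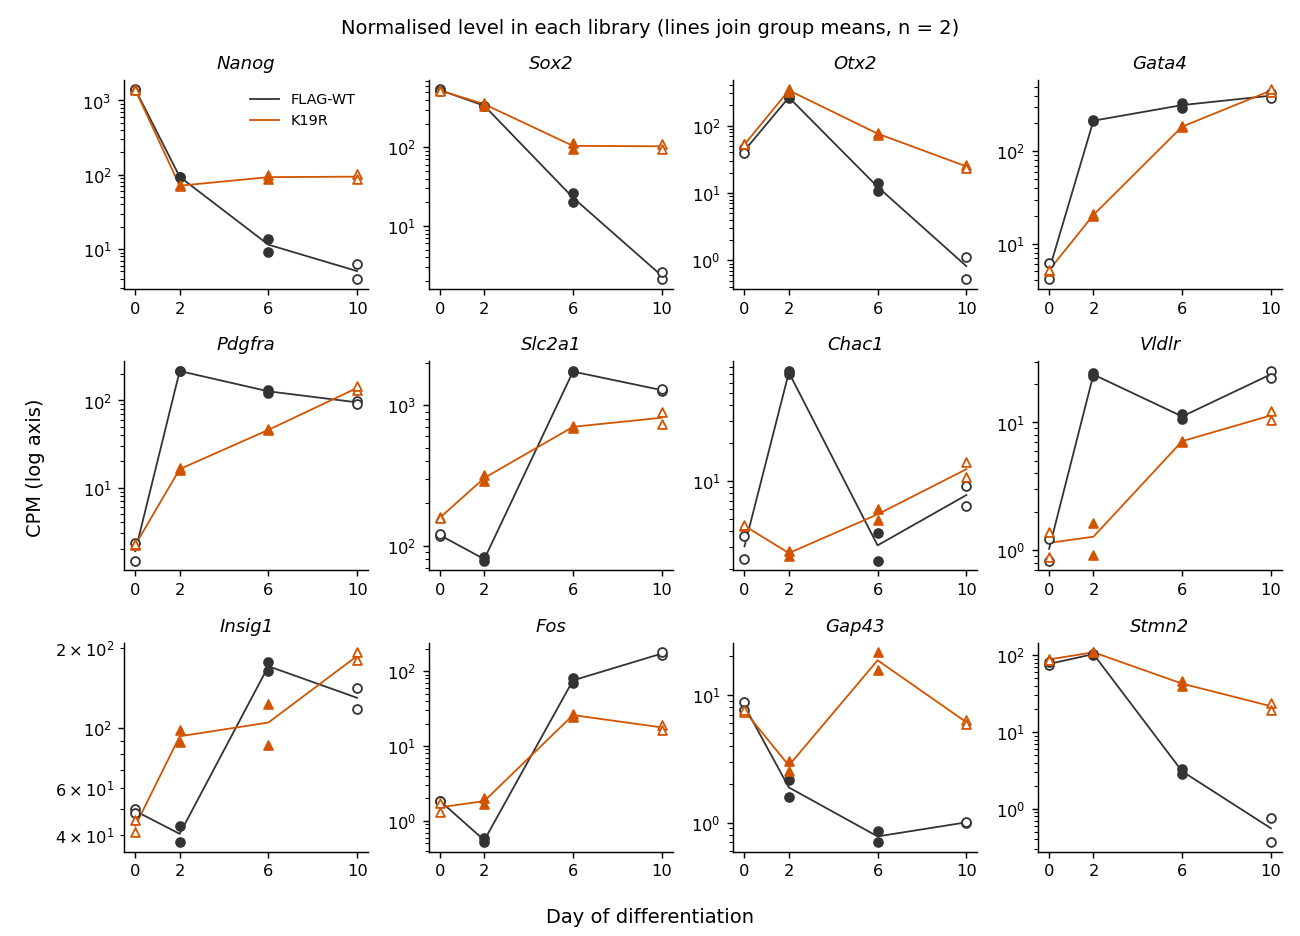
CPM on a log axis against day of differentiation for 12 genes, with 1 point per library, circles for FLAG-WT and triangles for K19R, lines through the means of 2 libraries, and filled points for the day 2 and day 6 libraries that enter the line difference. Nanog at day 6 was 9.28 and 13.7 CPM in FLAG-WT and 87.9 and 98.2 CPM in K19R, while Gata4, Pdgfra and Vldlr started lower in K19R at day 2 and came closer to FLAG-WT by day 6.

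The list of primitive and visceral endoderm regulators was below FLAG-WT in K19R at day 2, with 21 of 21 tested members called lower, where 21.8% of all genes were. At day 6, 17 were called lower and 1 higher, where 30.1% and 28.4% of all genes were. By line difference 19 were above 0, none below 0 and 2 not called, with a median line difference of 1.30. The median gap, K19R minus FLAG-WT, was -2.61 at day 2, -1.05 at day 6 and -0.03 at day 10. Of the 19 called members the gap narrowed in 15, was no longer called at day 6 in 3 and changed sign in 1. Besides regulators, the list holds matrix and uptake genes, among them Col4a1, Col4a2, Lamb1 and Dab2. Col4a1, Col4a2 and Dab2 also stand in lists described below, so their values there are not separate observations. Gata4 (chr14:63198922-63271692), a zinc-finger factor gene that drives the endoderm fate, had 217 and 212 CPM at day 2 and 335 and 298 CPM at day 6 in FLAG-WT, against 20.9 and 19.99 CPM and then 182 and 188 CPM in K19R. FLAG-WT was above K19R at both days, with no overlap, and the gap shrank from -3.39 to -0.77 on the log2 scale. Its line difference was 2.62 ± 0.13 (adjusted p = 1.9e-14).

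Gata6, which acts with Gata4, fell by 0.55 on the log2 scale in FLAG-WT and rose by 0.39 in K19R, a line difference of 0.94 ± 0.11 (adjusted p = 1.2e-07). Foxa2, a forkhead factor gene, had 16.99 and 16.1 CPM at day 2 and 137 and 123 CPM at day 6 in FLAG-WT, against 2.05 and 2.82 CPM and then 41.9 and 43.5 CPM in K19R. It rose in both lines, with a line difference of 1.16 ± 0.18 (adjusted p = 1.1e-05). Sox17, an SRY-box factor gene of endoderm, had 1.32 ± 0.18. Sox7, its relative in primitive endoderm, had 104 and 105 CPM at day 2 and 11.7 and 9.63 CPM at day 6 in FLAG-WT, against 8.67 and 8.62 CPM and then 9.47 and 9.15 CPM in K19R. FLAG-WT was above K19R at day 2 in both libraries, and all 4 libraries at day 6 were between 9.15 and 11.7 CPM, which gave 3.39 ± 0.16 (adjusted p = 1.5e-14). Fst, which encodes the activin antagonist follistatin, had 3.58 ± 0.23 (adjusted p = 4.2e-12). Its gap changed sign, from -2.07 at day 2 to 1.505 at day 6. Pdgfra, a receptor gene of primitive endoderm that stood in the early mesoderm list, had 216 and 219.7 CPM at day 2 and 133 and 122 CPM at day 6 in FLAG-WT, against 16.6 and 16.02 CPM and then 46.8 and 45.3 CPM in K19R, a line difference of 2.27 ± 0.12 (adjusted p = 5.2e-14).

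Among the uptake receptors and transporters of visceral endoderm, 10 of 17 were above 0 and 6 below 0. Cubn, which encodes the endocytic receptor cubilin, had 2057 and 2159.9 CPM at day 2 and 3842 and 4178 CPM at day 6 in FLAG-WT, against 192 and 133 CPM and then 1653 and 1688 CPM in K19R, a line difference of 2.43 ± 0.34 (adjusted p = 1.6e-06). Lrp2, which encodes megalin, had 2.54 ± 0.16 (adjusted p = 1.4e-12), and Dab2, an endocytic adaptor gene, 2.19 ± 0.17 (adjusted p = 1.1e-10). In each the K19R libraries were below FLAG-WT at both days. In the basement membrane list 10 of 24 were above 0 and 8 below 0, with a median of 0.20, or 12 and 3 with library totals alone. Lama1, a laminin chain gene, had 371 and 355 CPM at day 2 and 1759.9 and 1937 CPM at day 6 in FLAG-WT, against 42.9 and 32.5 CPM and then 691 and 729 CPM in K19R, a line difference of 1.89 ± 0.19 (adjusted p = 7.5e-09). The collagen IV genes Col4a1 and Col4a2 had 1.30 ± 0.13 and 1.498 ± 0.11.

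Of 24 tested genes for serum and lipid transport proteins, which visceral endoderm secretes, 5 were above 0, 5 below 0 and 14 not called. DESeq2 called 2 above 0 and 6 below 0. The median was -0.15, or -0.11 with the 2 genes at 0 counts in a group set to a floor of 3 counts per library, and 0.22 with library totals alone. Steps were large in both lines, at a median of 6.68 in FLAG-WT and 6.74 in K19R. Gc, the vitamin D-binding protein gene, had 2.803 and 1.897 CPM at day 2 and 35.8 and 32.6 CPM at day 6 in FLAG-WT, against 2.38 and 2.27 CPM and then 5.297 and 5.04 CPM in K19R, a line difference of -2.74 ± 0.28 (adjusted p = 1.0e-08). Trf, which encodes transferrin, had -2.84 ± 0.54 (adjusted p = 1.0e-04), and Apoa2, an apolipoprotein gene, -3.26 ± 1.08 (adjusted p = 0.017). Fga, the fibrinogen alpha chain gene, had -3.36 ± 0.91 (adjusted p = 0.0036), but its day 2 values were 0.172 and 0.06897 CPM in FLAG-WT and 0.128 and 0.543 CPM in K19R, and without K19R day 2 replicate 2 its line difference was -2.04 and not called (adjusted p = 0.29). Apob and Apoa1, whose values were seen before they were named, went the other way, with 1.48 ± 0.36 and 1.56 ± 0.52. Serpinc1, which encodes antithrombin, and Selenop, which encodes a selenium carrier, were among the 12 lowest line differences that the naming rule admits. The rule takes called genes with at least 10 CPM in a group and leaves out predicted-gene and clone names. Serpinc1 had 0.302 and 0.345 CPM at day 2 and 14.8 and 13.3 CPM at day 6 in FLAG-WT, against 0.738 and 0.441 CPM and then 1.08 and 0.8098 CPM in K19R, a line difference of -4.75 ± 0.46 (adjusted p = 4.9e-09). Selenop had 7.76 and 8.76 CPM at day 2 and 1985 and 2056 CPM at day 6 in FLAG-WT, against 13.6 and 13.03 CPM and then 347 and 309 CPM in K19R, a line difference of -3.31 ± 0.25 (adjusted p = 7.9e-11). At day 6 both FLAG-WT libraries were above both K19R libraries for each gene.

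Of 24 tested V-ATPase and cathepsin genes of the lysosome, 23 rose in FLAG-WT and 19 in K19R, where 35.6% and 34.7% of all genes rose. By line difference 2 were above 0 and 16 below 0, with a median of -0.48, or -0.10 with library totals alone. The gap widened in 16 of the 18 called members. Ctsa, which encodes cathepsin A, had 102 and 107 CPM at day 2 and 634 and 621 CPM at day 6 in FLAG-WT, against 53.1 and 57.3 CPM and then 153 and 155 CPM in K19R, a line difference of -1.10 ± 0.11 (adjusted p = 4.3e-09). The 2 genes above 0 were Ctsl, a cathepsin gene strong in visceral endoderm, with 1.00 ± 0.10, and Lgmn, which encodes legumain, with 0.99 ± 0.13. Ctsl rose in K19R from 167 and 179 CPM to 1291 and 1219 CPM.

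Genes of the integrated stress response, through which cells short of amino acids or under protein stress raise ATF4 and its targets, were mostly higher in FLAG-WT at day 2. Of 20 tested members 18 were called lower in K19R at day 2 and 14 at day 6, where 21.8% and 30.1% of all genes were. By line difference 16 were above 0 and 2 below 0, against 23.2% and 21.3% of all genes, with a median line difference of 1.03. The median gap was -1.52 at day 2 and -0.55 at day 6. Promoter windows were available for 17 of the 20. In the 250 bases before the RefSeq start (GRCm38.p6), 6 of the 17 held TGATGNAA on either strand, the core of the composite site known to bind ATF4 with C/EBP factors, against 2.51% of the 12912 tested genes with a window. They were Asns, Atf3, Chac1, Nupr1, Slc7a11 and Vldlr. Among the other lists searched, 2 of 10 neuron windows and 1 of 14 cholesterol synthesis windows held it too, and no window of the rest did. The windows of Chac1 and of Slc7a11, a cystine transporter gene chosen because its match lay outside the annotated gene, are shown up to the annotated gene start, 5′ to 3′, with the match in capitals.
Chac1, chr2:119350992-119351228, forward strand: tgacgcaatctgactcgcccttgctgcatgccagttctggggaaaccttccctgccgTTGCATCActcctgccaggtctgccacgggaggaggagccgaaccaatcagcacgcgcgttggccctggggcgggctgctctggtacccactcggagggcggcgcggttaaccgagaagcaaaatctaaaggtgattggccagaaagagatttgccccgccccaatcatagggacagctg
Slc7a11, chr3:50443615-50443863, reverse strand: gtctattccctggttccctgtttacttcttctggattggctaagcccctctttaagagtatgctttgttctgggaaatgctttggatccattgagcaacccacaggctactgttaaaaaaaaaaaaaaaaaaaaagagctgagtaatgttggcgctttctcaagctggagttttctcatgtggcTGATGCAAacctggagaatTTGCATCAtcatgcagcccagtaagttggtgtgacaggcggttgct

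Chac1 (chr2:119351229-119354381), which encodes an enzyme that degrades glutathione, had 70.02 and 74.8 CPM at day 2 and 3.86 and 2.34 CPM at day 6 in FLAG-WT, against 2.57 and 2.82 CPM and then 4.895 and 6.02 CPM in K19R. FLAG-WT at day 2 stood far above the other groups, which ranged from 2.34 to 6.02 CPM. Its line difference was 5.53 ± 0.29 (adjusted p = 7.8e-14). Nupr1, a stress-induced chromatin factor gene, had 30.7 and 30.8 CPM at day 2 and 4.16 and 2.92 CPM at day 6 in FLAG-WT, against 1.32 and 1.32 CPM and then 4.41 and 3.63 CPM in K19R, a line difference of 4.69 ± 0.30 (adjusted p = 3.9e-12). Vldlr, a lipoprotein receptor gene that ATF4 can raise, had 24.3 and 23.2 CPM at day 2 and 11.6 and 10.7 CPM at day 6 in FLAG-WT, against 1.64 and 0.916 CPM and then 7.06 and 7.22 CPM in K19R, a line difference of 3.56 ± 0.26 (adjusted p = 2.8e-11). For both, FLAG-WT at day 2 was again the highest group. Asns, the asparagine synthetase gene, had 454 and 466 CPM at day 2 and 138 and 119 CPM at day 6 in FLAG-WT, against 157 and 178 CPM and then 196 and 184 CPM in K19R, a line difference of 2.02 ± 0.11 (adjusted p = 1.6e-13). At day 0 the means were 3.04 and 4.43 CPM for Chac1 and 341 and 372 CPM for Asns in FLAG-WT and K19R. Slc7a11, a low gene at 3.86 to 4.66 CPM in FLAG-WT at day 2, had 1.76 ± 0.54 (adjusted p = 0.0093). The 2 members below 0 were Ppp1r15a, which encodes the phosphatase subunit that ends the response, with -1.92 ± 0.17, and Psat1, a serine synthesis gene, with -0.43 ± 0.10. Both were named after their values were seen, as were Atf4 with 0.53 ± 0.12 and Ddit3 with -0.45 ± 0.36 (adjusted p = 0.32), which was not called.

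Cholesterol synthesis genes lay on the other side of 0. In FLAG-WT 17 of the 20 tested rose and none fell, where 35.6% of all genes rose and 37% fell. In K19R 2 rose and 12 fell, where 34.7% and 32.1% did. By line difference none was above 0 and 19 were below 0, against 23.2% and 21.3% of all genes, with a median of -1.33. The median gap was 0.91 at day 2 and -0.45 at day 6, and the sign of the gap changed in 13 of the 19 called genes. These genes are known targets of SREBP factors, which act with NF-Y at CCAAT boxes. All 14 members with a window held CCAAT on either strand in the 250 bases before the start, against 40.2% of tested genes. The share was above 40.2% in each of the other 5 lists searched too, from 57.1% of immediate early and heat shock genes to 83.3% of 2-cell-like genes. CCAAT was not the only frequent motif, since GGGCGG was in 13 of the 14 (92.9%), against 59.3% of tested genes. In the other 5 lists the GGGCGG share ran from 16.7% of 2-cell-like genes to 85.7% of immediate early and heat shock genes. In the cholesterol list 1 of the 14 (Hmgcs1) held TCACNCCAC, a form of the sterol regulatory element, against 1.32%. It was also in 2 of 10 neuron windows and 1 of 6 windows of 2-cell-like genes. Windows of Insig1 and, chosen because several matches lay outside the annotated gene, of Hmgcs1 and Mvk are shown in the same way, with CCAAT and its reverse complement in capitals.
Insig1, chr5:28071162-28071362, forward strand: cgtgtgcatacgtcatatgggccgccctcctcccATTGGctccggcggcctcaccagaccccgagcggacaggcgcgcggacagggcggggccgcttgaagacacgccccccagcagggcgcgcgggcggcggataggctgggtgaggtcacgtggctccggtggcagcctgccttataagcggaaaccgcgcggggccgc
Hmgcs1, chr13:119690101-119690350, forward strand: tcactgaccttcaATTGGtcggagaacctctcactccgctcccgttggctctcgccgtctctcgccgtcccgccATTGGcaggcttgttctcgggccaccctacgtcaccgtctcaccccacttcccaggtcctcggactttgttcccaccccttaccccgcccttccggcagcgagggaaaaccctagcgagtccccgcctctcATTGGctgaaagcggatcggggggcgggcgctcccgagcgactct
Mvk, chr5:114444019-114444268, forward strand: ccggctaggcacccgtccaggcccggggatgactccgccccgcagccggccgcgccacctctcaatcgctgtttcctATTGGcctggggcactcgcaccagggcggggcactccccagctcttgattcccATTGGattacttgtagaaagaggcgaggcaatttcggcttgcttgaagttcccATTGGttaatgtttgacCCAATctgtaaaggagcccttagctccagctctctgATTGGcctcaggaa

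Insig1 (chr5:28071363-28078662), a sterol-sensing brake on the pathway that is itself induced by it, had 43.1 and 37.4 CPM at day 2 and 164 and 177 CPM at day 6 in FLAG-WT, against 98.1 and 88.5 CPM and then 86.5 and 124 CPM in K19R. K19R was above FLAG-WT at day 2 and below it at day 6 in both libraries. Insig1 rose by 2.09 on the log2 scale in FLAG-WT, and its step in K19R was 0.17 and not called, for a line difference of -1.91 ± 0.16 (adjusted p = 4.3e-10). Dhcr7, which catalyses the last step of synthesis, had 30.01 and 32.5 CPM at day 2 and 134 and 139.8 CPM at day 6 in FLAG-WT, against 85.3 and 81.9 CPM and then 77.4 and 93.2 CPM in K19R, a line difference of -2.10 ± 0.17 (adjusted p = 3.4e-10). Idi1, an isoprenoid isomerase gene, had -1.71 ± 0.17 (adjusted p = 9.4e-09). Hmgcs1 and Mvk, early enzymes of the mevalonate pathway, had -1.55 ± 0.19 and -1.32 ± 0.15. In all, 42 pairs of list and motif (7 motifs in 6 lists) were looked at, the matches describe letters only, and no match was tested.

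Immediate early and heat shock genes are switched on within minutes by growth factors, stress or heat. Of 18 tested, none was above 0 and 14 were below 0, where 21.3% of all genes were below 0, with a median of -1.26. With library totals alone 2 were above 0 and 12 below 0. Fos, a subunit gene of the AP-1 factor, had 0.517 and 0.586 CPM at day 2 and 69.9 and 80.98 CPM at day 6 in FLAG-WT, against 2.02 and 1.66 CPM and then 24.8 and 27.1 CPM in K19R. It rose in both lines, from a higher level in K19R at day 2 to a lower level at day 6, and the line difference was -3.26 ± 0.28 (adjusted p = 7.2e-10). Its relatives Fosb and Jund had -3.76 ± 0.44 (adjusted p = 1.0e-07) and -1.73 ± 0.12 (adjusted p = 3.1e-11). Hspa1b, which encodes an inducible chaperone, had 2.93 and 2.55 CPM at day 2 and 127 and 165 CPM at day 6 in FLAG-WT, against 4.62 and 4.21 CPM and then 49.7 and 76.9 CPM in K19R, a line difference of -1.90 ± 0.48 (adjusted p = 0.0023). It shares most of its sequence with Hspa1a, so its counts are uncertain. Targets of ERK signalling held 5 genes above 0 and 10 below 0 of 19, or 7 and 7 with library totals alone. Egr1 had -1.65 ± 0.14 and Dusp5, a phosphatase gene that restrains ERK, -2.03 ± 0.16. The median gap of the immediate early list at day 10 was -1.50.

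**Figure D3:**
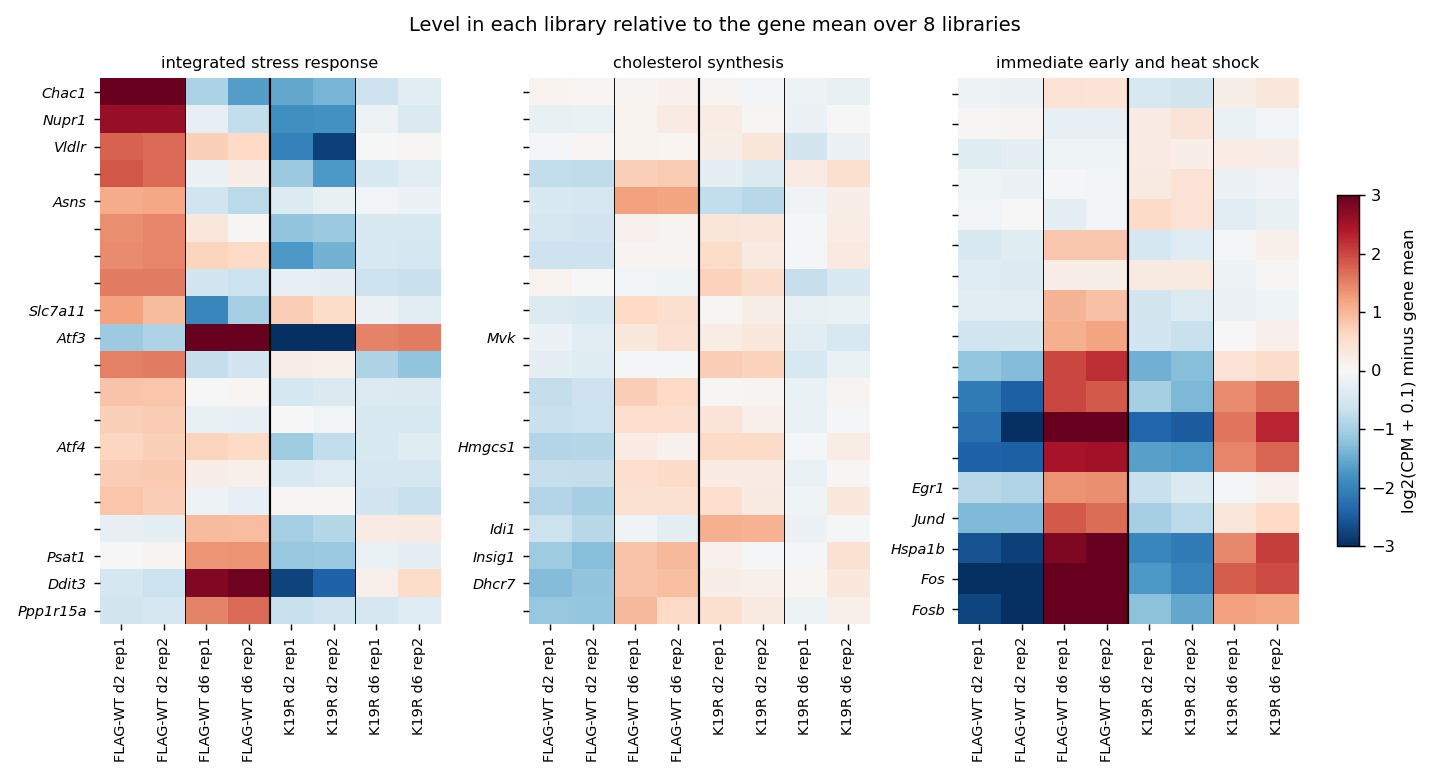
Heat maps of 3 lists, with genes in rows ordered by line difference and names beside those described in the text, the 8 libraries in columns, and colour for log2(CPM + 0.1) minus the gene's mean over the 8 libraries. In the stress response list the darkest red of Chac1 and Nupr1 lies in the FLAG-WT day 2 columns, whereas 13 of the 20 cholesterol genes, among them Insig1 and Dhcr7, turn from higher in K19R at day 2 to higher in FLAG-WT at day 6.

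Of 15 tested hypoxia response genes 3 were above 0 and 7 below 0, with a median of -0.51. With library totals alone 5 were above 0 and 7 below 0, with a median of -0.13, and DESeq2 called 1 and 7. Of 18 glycolysis genes 4 were above 0 and 9 below 0, with a median of -0.24, or 7 and 6 with a median of 0.14 with library totals alone. Slc2a1 (chr4:119108711-119137983), the gene of the glucose transporter GLUT1, had 82.6 and 78.04 CPM at day 2 and 1709 and 1760.1 CPM at day 6 in FLAG-WT, against 317 and 289.7 CPM and then 693 and 711 CPM in K19R. K19R was above FLAG-WT at day 2 and below it at day 6, with no overlap at either day, and the line difference was -3.22 ± 0.11 (adjusted p = 1.6e-16). Bnip3, a mitophagy gene, had 15.1 and 13.1 CPM at day 2 and 88.3 and 84.8 CPM at day 6 in FLAG-WT, against 44.05 and 41.8 CPM and then 30.7 and 29.4 CPM in K19R, a line difference of -3.14 ± 0.14 (adjusted p = 7.1e-15). Ldha, the lactate dehydrogenase A gene, rose by 1.01 on the log2 scale in FLAG-WT and fell by 1.24 in K19R, a line difference of -2.25 ± 0.10 (adjusted p = 7.1e-15). Egln3, which encodes a prolyl hydroxylase of the hypoxia factors, had -2.19 ± 0.16 and the triosephosphate isomerase gene Tpi1 -2.01 ± 0.10. Vegfa, the gene of the main vessel growth factor, had 78.8 and 85.7 CPM at day 2 and 271 and 289.6 CPM at day 6 in FLAG-WT, against 8.25 and 7.64 CPM and then 127 and 130.1 CPM in K19R, and rose in both lines with a line difference of 2.25 ± 0.11 (adjusted p = 1.8e-14). Slc2a3, which encodes the transporter GLUT3, also lay above 0, at 1.56 ± 0.12 (adjusted p = 1.6e-10).

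Of 16 tested neuron genes 14 were above 0 and none below 0, with a median of 2.10, the highest of the 43 lists. Their median step was -1.27 in FLAG-WT and 1.02 in K19R. Stmn2, a microtubule regulator gene of growing axons, had 102 and 105 CPM at day 2 and 3.35 and 2.802 CPM at day 6 in FLAG-WT, against 109 and 110.04 CPM and then 39.3 and 46.3 CPM in K19R, a line difference of 3.70 ± 0.17 (adjusted p = 7.1e-15). It had no called gap at day 2 and fell less in K19R. Gap43, a growth cone gene, had 1.595 and 2.173 CPM at day 2 and 0.859 and 0.701 CPM at day 6 in FLAG-WT, against 2.54 and 3.05 CPM and then 15.7 and 21.5 CPM in K19R, a line difference of 4.004 ± 0.35 (adjusted p = 8.0e-10). Unlike Stmn2, it rose in K19R. Crmp1, another axon growth gene, had 2.65 ± 0.20 and Map2, which encodes a dendrite protein, 2.169 ± 0.32. Among neural progenitor genes 2 of 20 were above 0, 4 below 0 and 14 not called, where 23.2% and 21.3% of all genes were above and below 0.

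In the smooth muscle and mesenchyme list 10 of 23 were above 0 and 2 below 0. The median was 1.53, or 0.72 with the 4 members at 0 counts in a group set to the floor. Acta2, the smooth muscle actin gene, had 0.216 and 0.172 CPM at day 2 and 3.22 and 3.79 CPM at day 6 in FLAG-WT, against 0.417 and 0.305 CPM and then 49.4 and 58.5 CPM in K19R, a line difference of 3.05 ± 0.64 (adjusted p = 3.4e-04). Thy1, a surface protein gene of fibroblasts and neurons, had 2.50 ± 0.26 (adjusted p = 1.4e-08), and Vim, which encodes vimentin, 1.85 ± 0.11 (adjusted p = 4.3e-13). Des, the muscle filament gene, had 9.097 and 8.59 CPM at day 2 and 9.15 and 7.88 CPM at day 6 in FLAG-WT, against 9.63 and 11.3 CPM and then 46.2 and 55.03 CPM in K19R, a line difference of 2.32 ± 0.20 (adjusted p = 1.0e-09). The 5 fibroblast markers (Col1a1, Col1a2, Col3a1, Thy1 and Postn) were summed. In FLAG-WT the level was 6.73 and 6.35 CPM at day 2 and 8.24 and 6.77 CPM at day 6. In K19R it was already higher at day 2, with 12.04 and 11.4 CPM, and was 37.04 and 48.6 CPM at day 6. Postn had 0, 0, 3 and 126 counts in FLAG-WT at day 2 and day 6 and in K19R at day 2 and day 6. The part of fibroblast-like cells in the other differences was not tested.

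Of 17 tested Notch and Hedgehog genes 8 were above 0 and 2 below 0, with a median of 0.62. The transcription factors of Hedgehog signalling led the list. Gli2 had 24.4 and 25.6 CPM at day 2 and 1.503 and 0.759 CPM at day 6 in FLAG-WT, against 13.7 and 12.2 CPM and then 12.1 and 12.3 CPM in K19R, a line difference of 4.31 ± 0.23 (adjusted p = 9.8e-14), and Gli3 and Gli1 had 2.79 ± 0.21 and 1.87 ± 0.32. Notch1, a receptor gene, had 31.6 and 31.3 CPM at day 2 and 20.6 and 18.8 CPM at day 6 in FLAG-WT, against 50.02 and 34.9 CPM and then 97.8 and 113 CPM in K19R. It fell in FLAG-WT and rose in K19R, with 1.98 ± 0.17 (adjusted p = 4.1e-10). In the BMP and TGF-beta pathway 11 of 26 were above 0 and 6 below 0. Lefty2, a secreted inhibitor of Nodal, had 291 and 279.9 CPM at day 2 and 0.687 and 0.409 CPM at day 6 in FLAG-WT, against 329 and 323 CPM and then 14.8 and 9.86 CPM in K19R, a line difference of 4.22 ± 0.35 (adjusted p = 3.1e-10). Gdf3, a Nodal co-ligand gene, had 2.82 ± 0.26 (adjusted p = 2.2e-09). Among WNT pathway genes 9 of 23 were above 0 and 2 below 0, and the 3 named beside Lef1 encode secreted antagonists. Sfrp1 had 2.81 ± 0.17, Sfrp5 2.66 ± 0.21 and Dkk1, which visceral endoderm also makes, 2.61 ± 0.16. In the retinoic acid pathway Cyp26a1, which encodes the enzyme that degrades retinoic acid, had 2.28 ± 0.19, whereas Dhrs3, which encodes a retinal reductase, had -3.10 ± 0.25.

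In the primitive streak and early mesoderm list 8 of 20 were above 0 and 1 below 0. T, the Brachyury gene, had 13, 1, 30 and 42 counts over the 2 libraries of FLAG-WT at day 2 and day 6 and of K19R at day 2 and day 6, too few for a fold. Of 20 tested cardiac and muscle genes 4 were above 0, 2 below 0 and 14 not called, where 23.2% and 21.3% of all genes were above and below 0. Among 30 tested Hox genes none was above 0, 7 were below 0 and 23 were not called, a share of calls near the 21.3% of all genes called below 0. The median was -1.01, or -0.63 with library totals alone, where 2 were above 0. None of the called Hox genes reached 10 CPM in any of the 4 groups. Their median gap at day 10 was 0.21.

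Of 18 germ cell genes 12 were above 0 and 2 below 0, with a median of 1.04. Dazl, an RNA-binding protein gene, had 26.8 and 26.7 CPM at day 2 and 3.13 and 2.04 CPM at day 6 in FLAG-WT, against 15.4 and 15.5 CPM and then 12.04 and 9.26 CPM in K19R, a line difference of 2.78 ± 0.20 (adjusted p = 4.3e-11), and Piwil2, a gene of the piRNA pathway, 2.32 ± 0.18 (adjusted p = 1.2e-10). Kit, a receptor tyrosine kinase gene, went the other way, with -1.34 ± 0.12 (adjusted p = 2.0e-09). Of 12 tested genes of the 2-cell-like state, a rare state of stem cells that resembles the early embryo, none was above 0 and 10 were below 0. Their median of -2.19 was the lowest of the 43 lists. The median gap was 1.41 in the day 2 libraries, -0.84 in those of day 6 and, at day 10, 3.04. Zscan4c had 9.36 and 10.6 CPM at day 2 and 4.55 and 3.97 CPM at day 6 in FLAG-WT, against 25.1 and 25.4 CPM and then 2.85 and 3.03 CPM in K19R, a line difference of -1.88 ± 0.20 (adjusted p = 2.7e-08). The K19R libraries were higher at day 2, and the level at day 6 was low in both lines. Zscan4 and Usp17l genes come in near-identical copies, so the split of reads among them is uncertain. Of 24 imprinted genes 10 were above 0 and 7 below 0, or 14 and 2 with library totals alone. Zdbf2 had 2.45 ± 0.20, Grb10, a brake on insulin signalling, 1.59 ± 0.15, and Phlda2, a brake on placental growth, -1.83 ± 0.23.

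Of 19 tested genes of surface ectoderm and epithelium 4 were above 0 and 10 below 0, with a median of -0.37 that was 0.01 with library totals alone. Cldn7, a tight junction gene, had 43.3 and 46.4 CPM at day 2 and 578 and 575 CPM at day 6 in FLAG-WT, against 38.7 and 43.3 CPM and then 193 and 180.5 CPM in K19R, a line difference of -1.49 ± 0.12 (adjusted p = 3.6e-10). Grhl3, an epithelial transcription factor gene, had -1.35 ± 0.16. Of 15 gut endoderm genes 1 was above 0 and 6 were below 0, or 2 and 5 with library totals alone. Krt18, a keratin gene that many epithelia use, rose in both lines, from 35.7 and 37.7 CPM to 2323 and 2237 CPM in FLAG-WT and from 35.9 and 42.8 CPM to 934 and 944 CPM in K19R, a line difference of -1.38 ± 0.18 (adjusted p = 5.5e-07). Among 10 neural crest genes 5 were above 0 and 1 below 0. Ngfr, a neurotrophin receptor gene, had 29.8 and 27.97 CPM at day 2 and 0.816 and 0.876 CPM at day 6 in FLAG-WT, against 18.4 and 18.5 CPM and then 2.73 and 2.4999 CPM in K19R, a line difference of 2.27 ± 0.25 (adjusted p = 4.7e-08). Foxd3, which embryonic stem cells also use, had 1.14 ± 0.26.

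Of 12 DNA methylation genes 3 were above 0 and 4 below 0, or 5 and 1 with library totals alone, where the median went from -0.16 to 0.22. Tet1, which encodes an enzyme that oxidises methylated cytosine, had 397 and 433 CPM at day 2 and 55.05 and 58.03 CPM at day 6 in FLAG-WT, against 410.4 and 289.8 CPM and then 112 and 95.8 CPM in K19R, a line difference of 1.12 ± 0.16 (adjusted p = 1.6e-06), and its relative Tet2 had 0.92 ± 0.17. Dnmt3a, a de novo DNA methyltransferase gene, had 391.6 and 402 CPM at day 2 and 145 and 152 CPM at day 6 in FLAG-WT, against 608 and 576 CPM and then 111 and 118 CPM in K19R, a line difference of -0.95 ± 0.09 (adjusted p = 6.4e-09). Tet1 and Dnmt3a both fell in both lines, Tet1 less in K19R and Dnmt3a more. Of 18 genes of the p53 pathway and apoptosis 5 were above 0 and 3 below 0, or 11 and 3 with library totals alone. The 3 below 0 were Bbc3 and Pmaip1, which encode the cell death proteins PUMA and NOXA, and Btg2, an antiproliferative gene. Their line differences were -1.13 ± 0.13, -1.06 ± 0.13 and -1.12 ± 0.13 in that order.

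Of 24 cell cycle and DNA replication genes 8 were above 0 and 6 below 0, with a median of 0.11, and with library totals alone 17 were above 0 and 2 below 0, with a median of 0.49. Mki67, a marker of dividing cells, had 256 and 267 CPM at day 2 and 151 and 139 CPM at day 6 in FLAG-WT, against 250.2 and 198 CPM and then 274 and 279 CPM in K19R, a line difference of 1.15 ± 0.14 (adjusted p = 1.6e-07). The inhibitor genes Cdkn2a and Cdkn2b rose more in FLAG-WT, with -1.75 ± 0.13 (adjusted p = 3.3e-11) and -1.86 ± 0.21 (adjusted p = 8.3e-08), and Cdkn1b had 1.00 ± 0.11 (adjusted p = 3.2e-08). For cytosolic ribosomal proteins 4 of 25 were above 0, 3 below 0 and 18 not called, with a median of -0.01. With library totals alone 18 were above 0 and none below 0, with a median of 0.37. For oxidative phosphorylation 1 of 22 was above 0 and 10 below 0, with a median of -0.29. With library totals alone the balance reversed, to 9 above 0 and 1 below 0, with a median of 0.09. Cox4i1, a cytochrome c oxidase subunit gene, had -0.62 ± 0.10, the furthest from 0 among the named members.

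**Figure D4:**
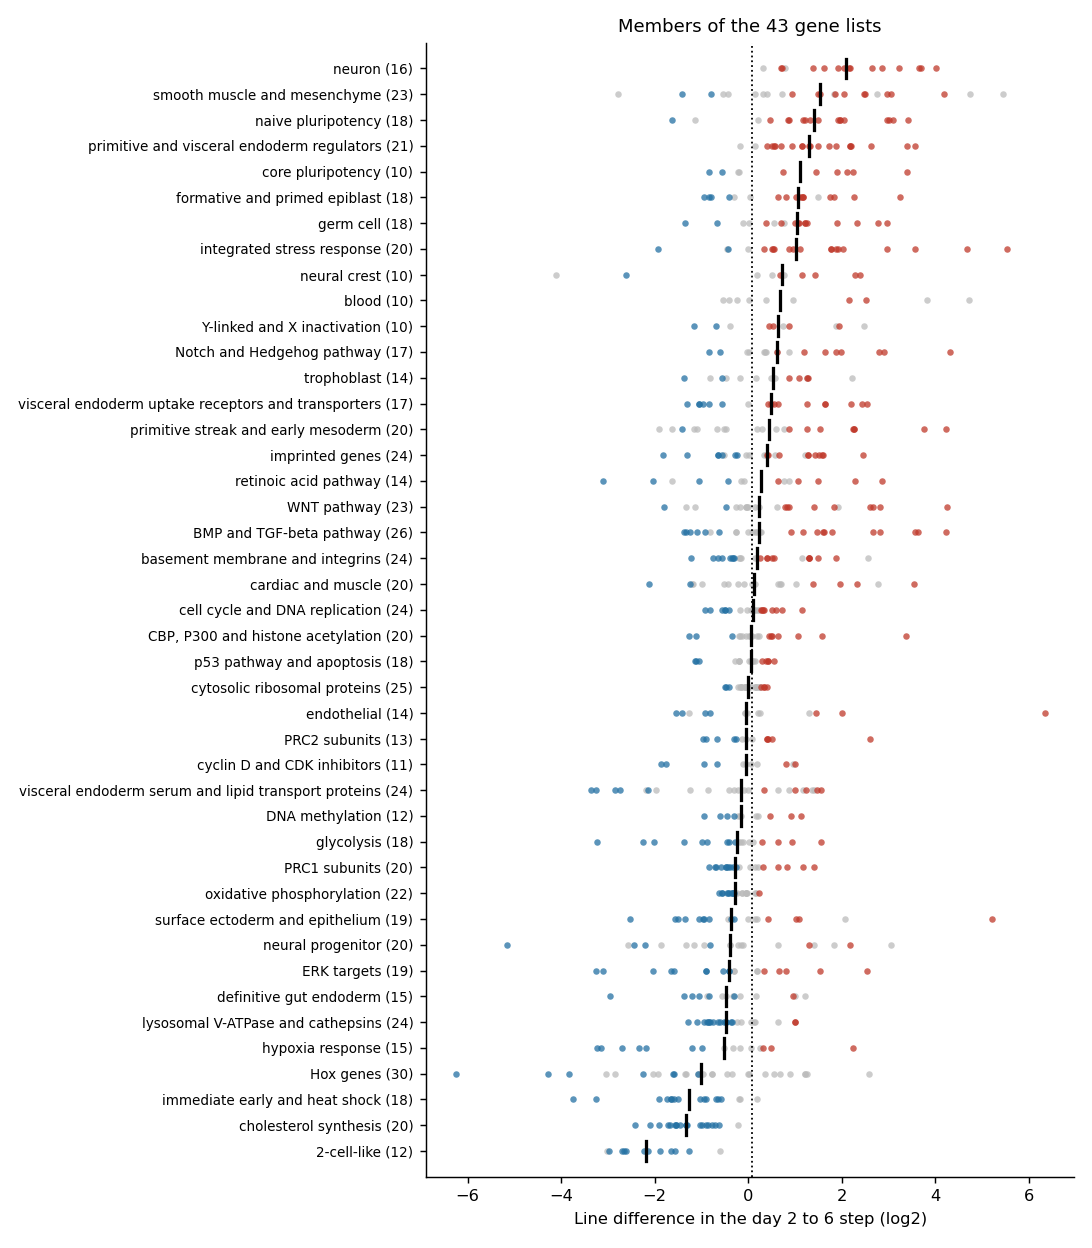
Line difference in the day 2 to 6 step (x axis, log2) of every tested member of the 43 lists, with the number tested in brackets, red and blue points for members called above and below 0, grey for those not called, a black bar for each list's median and a dotted line for the median of all genes at 0.08. Medians run from -2.19 for the 2-cell-like list to 2.10 for the neuron list.

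**Figure D5:**
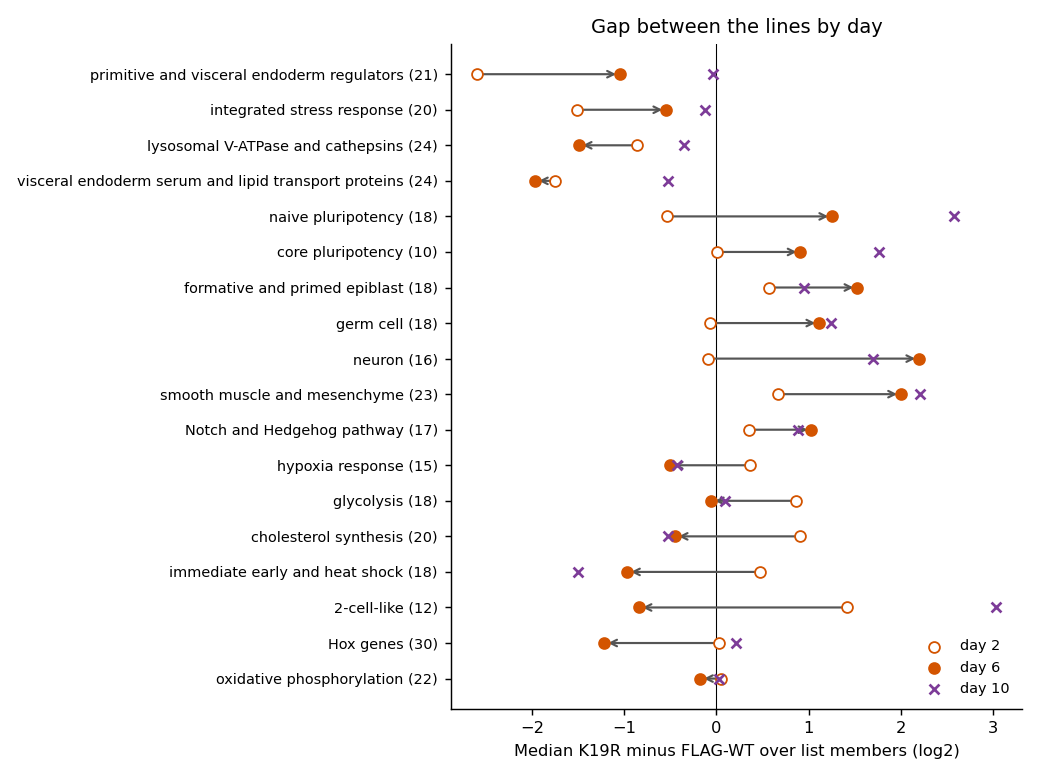
Median gap between the lines (K19R minus FLAG-WT, log2, x axis) over the tested members of 18 lists, with arrows from day 2 (open circle) to day 6 (filled circle) and a cross for day 10, which is not part of the line difference. Endoderm regulators run from -2.61 to -1.05 and naive pluripotency from -0.54 to 1.25, while cholesterol synthesis runs from 0.91 to -0.45.

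Outside the lists, the extremes held genes of varied function. Has2, which makes hyaluronan, had 269.99 and 277 CPM at day 2 and 1.85 and 0.993 CPM at day 6 in FLAG-WT, against 38.7 and 35.6 CPM and then 10.5 and 11.7 CPM in K19R. FLAG-WT was above K19R at day 2 and below it at day 6, and the line difference was 5.79 ± 0.21 (adjusted p = 1.7e-16). The guidance genes Slit3 and Sema3c fell in FLAG-WT and rose in K19R. Slit3 had 8.58 and 9.001 CPM at day 2 and 2.92 and 2.22 CPM at day 6 in FLAG-WT, against 10.1 and 10.3 CPM and then 66.3 and 77.8 CPM in K19R, a line difference of 4.57 ± 0.21 (adjusted p = 1.5e-14), and Sema3c had 4.86 ± 0.41 (adjusted p = 4.3e-10). Thsd7a, a membrane protein gene, also moved in opposite directions, with 5.57 ± 0.39 (adjusted p = 2.1e-11). Svop, a synaptic vesicle protein gene, had 10.6 and 11.6 CPM in K19R at day 6 and at most 1.16 CPM in the other 6 libraries, a line difference of 4.51 ± 0.65 (adjusted p = 2.6e-06). Lemd1 had 269 and 0 counts in FLAG-WT and 858 and 136 counts in K19R at day 2 and day 6, so with a floor of 3 counts per library its line difference was at least 2.59. Dusp27 had 3890 and 2 counts in FLAG-WT and 3755 and 104 in K19R.

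H2-Q10, which encodes a secreted class I protein, had 1.77 and 1.14 CPM at day 2 and 47.4 and 44.4 CPM at day 6 in FLAG-WT, against 4.27 and 4.65 CPM and then 4.37 and 4.93 CPM in K19R, a line difference of -4.94 ± 0.26 (adjusted p = 7.8e-14). The reads of class I genes can be shared among copies, so its counts are uncertain. Lgals3bp, which encodes a secreted galectin-binding protein, had 4.79 and 4.52 CPM at day 2 and 85.7 and 88.6 CPM at day 6 in FLAG-WT, against 18.3 and 20.4 CPM and then 24.2 and 19.96 CPM in K19R, a line difference of -4.04 ± 0.15 (adjusted p = 1.7e-16). Rsad2, an interferon-induced antiviral gene, had 1.77 and 2.31 CPM at day 2 and 28.3 and 30.9 CPM at day 6 in FLAG-WT, against 6.74 and 7.16 CPM and then 9.39 and 7.39 CPM in K19R, a line difference of -3.57 ± 0.22 (adjusted p = 1.3e-12). In these 3 genes K19R was above FLAG-WT at day 2 and below it at day 6 in every library. Fcgr3, an antibody receptor gene, had 3 and 548 counts in FLAG-WT and 17 and 266 in K19R at day 2 and day 6. Adamts1, a secreted protease gene, rose in both lines with -3.46 ± 0.29 (adjusted p = 5.0e-10), Tmem252 had -4.70 ± 0.57 (adjusted p = 2.1e-07), and Lor, a skin barrier gene, -3.52 ± 0.40 (adjusted p = 7.4e-08).

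Of 10 tested Y-linked and X inactivation genes 4 were above 0 and 2 below 0. Ddx3y had 9.74 and 11.5 CPM at day 2 and 4.51 and 5.96 CPM at day 6 in FLAG-WT, against 56.3 and 52.1 CPM and then 37.8 and 38.3 CPM in K19R, a line difference of 0.54 ± 0.19 (adjusted p = 0.023). Uty had 0.88 ± 0.25 (adjusted p = 0.0054). Xist, the RNA that silences an X chromosome, had 19.2 and 20.9 CPM at day 2 and 28.4 and 29.2 CPM at day 6 in FLAG-WT, against 5.201 and 4.45 CPM and then 2.97 and 3.204 CPM in K19R, a line difference of -1.16 ± 0.19 (adjusted p = 2.1e-05). Both K19R libraries were above both FLAG-WT libraries in Ddx3y and below them in Xist at each day. Xist overlaps the antisense gene Tsix and the counting gave no strand option, so its reads are uncertain. Uba1y, a Y-linked copy of an X-linked gene, had 33 and 2 counts in FLAG-WT and 328 and 544 in K19R at day 2 and day 6. By chromosome, the share of genes called ran from 40.3% to 48.6% over the 19 autosomes and was 40.2% on X. The median gap at day 0 was -0.12 on X and between -0.03 and 0.06 on the autosomes. Chromosome Y stood apart, with 4 of its 7 tested genes above 0 and 1 below 0 (71.4% called). Its median gap was 2.64 at day 0, before differentiation, and 3.60 at day 6.

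Called genes also differed in level and length. Levels here are CPM that are not divided by length. Of genes with a mean under 1 CPM over the 4 groups, 15.4% were called, against 61.3% of those over 100 CPM. Genes below 0 had a median level of 46.9 CPM and those above 0 one of 10.7 CPM. Of the genes over 100 CPM, 1034 were below 0 and 394 above 0. Between 1 and 10 CPM the order was the reverse, with 536 below 0 and 1594 above 0. Median exon length was 4506 bases above 0, 3838 below 0 and 3044 in genes not called. Promoter windows held a median of 59.2% G and C in genes above 0 and 60.8% in genes below 0, with 59.2% over all.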

How the data were processed

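Per the file headers, the authors counted read pairs per gene with featureCounts 1.6.3 on the GENCODE vM19 annotation (GRCm38), with both ends mapped, no chimeric pairs and no strand option. The deposited values are counts. Per the submitters' processing notes, STAR 2.7.0c, Trim Galore 0.6.0, bcl2fastq 2.17 and FastQC 0.11.7 were also used.

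All 16 libraries of the tagged lines were fitted together, with 1 coefficient per line and day, with edgeR 4.0.16 (R 4.3.3, limma 3.58.1), TMM scaling and filterByExpr (10 counts per library, 15 in total). The quasi-likelihood test gave the line difference, the step of each line and the gap at each day for 19092 genes, with Benjamini-Hochberg adjustment and a threshold of 0.05. The script was tested on simulated data. Alternatives were another scaling, no filter, DESeq2 1.42.0, the 8 libraries alone, a replicate block and leaving out each library. The 8 libraries hold 20452195 to 28917558 counts, so counting error is small for genes over 10 CPM. Duplicates differed by more than counting error, and of the 4 groups most in K19R at day 2. Its chi-square per degree of freedom, which grows with that spread, was 10.1. The value was 3.51 in FLAG-WT at day 2, 4.08 in FLAG-WT at day 6 and 5.84 in K19R at day 6. Duplicates may be technical, since no label ties them to separate cultures, and p-values then measure only the spread between these libraries. Promoter windows are RefSeq's (GRCm38.p6). Gene coordinates are those of the count table.

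The genes, lists and naming rule were chosen with earlier results of these data known. The rule names called genes with at least 10 CPM in a group: the 12 highest and 12 lowest without predicted-gene or clone names, up to 4 per list, and a fixed set of PRC2, pluripotency and endoderm genes. Other names are stated as such or given with counts only. The 2 libraries of untagged wildtype cells were not used here. Results for a few genes are not reported here.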

Additional observations from a re-analysis of the deposited data

Results flagged for a closer look

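The line difference is itself a test of whether the same step differs between the lines, and it was called for 8503 genes. Among the 24 genes that the rule names at the extremes, 6 fell in one line and rose in the other, with both steps called. Their line differences were 5.57 for Thsd7a, 5.53 for Chac1, 4.86 for Sema3c, 4.69 for Nupr1, 4.57 for Slit3 and 4.47 for Uba1y. The first 5 fell in FLAG-WT and rose in K19R in every library. Uba1y did so too, but its FLAG-WT value at day 6 rests on 2 counts over both libraries, and it has a close X-linked copy, so its counts are uncertain. Groups of 2 libraries are too small for an outlier test, and each library was left out in turn instead.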

How the results depend on the processing

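Library totals alone, without scaling for composition, moved the balance of directions. Under it 7790 genes were above 0 and 1857 below 0 by line difference, and at day 6 8582 were called higher in K19R and 3188 lower. The line difference of Suz12 reversed to 0.079. Leaving out 1 library at a time gave 7307 to 8067 genes called by line difference, 12747 to 14045 by the FLAG-WT step, 11438 to 12940 by the K19R step, 5829 to 7917 at day 2 and 9711 to 11289 at day 6. Each of those ranges is within 1.5 times the count from all libraries. Of the 178 genes the rule names, 15 lost their call in 1 or more alternatives, 9 with library totals alone, 8 without 1 library and 1 with DESeq2, and none changed sign except Suz12. Over all tested genes, same-numbered libraries did not deviate together, with correlations from -0.026 to 0.018. Counting noise in low genes can hide a shared deviation, so these values cannot tell whether the numbers pair the samples. With a replicate block 8434 genes were called by line difference. Genes under 1 CPM are the ones that depth limits, and 15.4% of them were called. Some genes with few counts are given as counts. Other printed folds, such as those of Fga, Serpinc1 and Acta2, rest on day 2 levels under 1 CPM in both lines.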
